A study of Mus musculus with 17 samples.

Results

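Long noncoding RNAs that are abundant in neurons or held in the nucleus were followed in hippocampi of epileptic and control mice. The set was chosen by name and holds 7 genes, Malat1, Neat1, Meg3, Rian, Mirg, Miat and Snhg11, of the 55450 genes in the count files. Identifiers from the gene name table matched a row for 4 of the 7. Rian, Mirg and Miat had no row under the identifiers of that table and are not analysed here. The count files may list them under other identifiers, which no table used here pairs with these names. The 17 libraries were made from polyadenylated RNA of adult mouse hippocampus. All 3 groups carried AAV9 vectors, injected into the right ventral hippocampus, with dCas9-VP64 (Cas9 that cannot cut, fused to an activation domain) under a tetracycline-responsive promoter, a transactivator with tdTomato under a Camk2a promoter, and a guide RNA, and all were fed doxycycline. The control_sgLacZ group (5 libraries) came from sham-treated mice with the guide sgLacZ, which is directed at a bacterial gene. The epileptic_sgLacZ group (6 libraries) had the same guide after kainic acid in the right amygdala, which sets off status epilepticus, a week before the vectors. The epileptic_sgKcna1 group (6 libraries) had the same kainic acid treatment and a guide to the promoter of Kcna1, a potassium channel gene. The study used male and female C57BL/6J mice. The Camk2a promoter biases the activator towards excitatory neurons, whereas the RNA came from whole hippocampal tissue.

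Malat1 is a nuclear RNA of the speckles, where splicing factors collect, and Neat1 is the scaffold around which paraspeckles form. The mature ends of Malat1 and of the long form of Neat1 have no conventional poly(A) tail, so their recovery in libraries of polyadenylated RNA is partial. Meg3, Rian and Mirg are transcribed from the maternal copy of the imprinted Dlk1-Dio3 domain, which also holds a large cluster of microRNAs and small nucleolar RNAs (snoRNAs), and Meg3 is prominent in neurons of the adult brain. Miat, also called Gomafu, is a neuronal nuclear RNA that binds splicing regulators. Snhg11 is the host transcript of a snoRNA and is likewise enriched in neurons.

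Gene positions are given in GRCm38.p6, the assembly called mm10, as RefSeq lists them. Malat1 (ENSMUSG00000092341) lies at chr19:5795690-5802672 and Neat1 (ENSMUSG00000092274) near it at chr19:5824708-5845480. Meg3 (ENSMUSG00000021268) lies at chr12:109540996-109571729. In the same domain are Rian at chr12:109603945-109661716 and Mirg at chr12:109734981-109749458. Miat lies at chr5:112213228-112228948 and Snhg11 (ENSMUSG00000044349) at chr2:158375713-158386474. RefSeq classes all 7 as long noncoding RNA genes.

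The promoters of Meg3 and Snhg11 are shown because the levels of these RNAs went together across libraries, as described further on. Both windows are read 5′ to 3′ on the plus strand in RefSeq's GRCm38.p6 and span the annotated start of transcription, at chr12:109540746-109541045 for Meg3 and chr2:158375463-158375762 for Snhg11. Capitals mark matches on either strand to the cAMP response element (TGACGTCA), its core (TGACG, which also matches inside the full element), a TATA box (TATAAA) and a CCAAT box (CCAAT).
Meg3: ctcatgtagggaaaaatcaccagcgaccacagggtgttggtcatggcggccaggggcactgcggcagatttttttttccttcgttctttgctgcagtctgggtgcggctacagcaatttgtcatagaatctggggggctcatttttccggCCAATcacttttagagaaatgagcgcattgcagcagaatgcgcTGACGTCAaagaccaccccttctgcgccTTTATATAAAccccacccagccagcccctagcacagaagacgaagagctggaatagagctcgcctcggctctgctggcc
Snhg11: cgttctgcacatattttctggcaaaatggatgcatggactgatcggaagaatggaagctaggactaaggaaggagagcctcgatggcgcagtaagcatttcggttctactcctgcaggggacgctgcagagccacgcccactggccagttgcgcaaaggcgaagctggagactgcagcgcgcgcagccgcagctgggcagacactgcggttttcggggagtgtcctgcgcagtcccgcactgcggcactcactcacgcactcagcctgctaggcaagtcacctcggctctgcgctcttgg
The Meg3 window held 1 full cAMP response element, 1 CCAAT box and a TATA sequence that matched on both strands. The Snhg11 window held none of the 4 motifs. Over all 27025 mouse promoter windows of the same length, 1.88% held the full element, 21.0% its core, 14.2% a TATA box and 37.9% a CCAAT box. The Malat1 window (chr19:5802623-5802922, minus strand) held 3 such cores and none of the other 3 motifs. These matches describe letters and were not tested as binding sites.

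Libraries held from 11839240 to 28311328 reads in genes, which gives each analysed RNA at least 305 reads in every library, far above the 3 reads taken as the floor of detection. Sampling error in reads was thus small beside the spread between libraries. Replicate 12 of epileptic_sgKcna1 stood apart, with the fewest reads in genes and 41.5% of reads unmapped. The share of reads that mapped to several places was lower in epileptic_sgLacZ (4.08% ± 0.618, SD, n = 6) than in control_sgLacZ (5.09% ± 0.194, SD, n = 5), with an exact permutation p of 0.00866 and 0.0390 adjusted over 9 tests of library measures. It was also lower in epileptic_sgKcna1 (4.51% ± 0.252, SD, n = 6) than in control_sgLacZ (exact permutation p = 0.00649, adjusted 0.0390). At least 50 reads of both Xist and Y-linked genes were present in 5 of the 17 libraries. Neuronal markers were high in every group (summed level of 10 genes 7944 to 10313 CPM, counts scaled to library size), as were those of astrocytes (2834 to 3855 CPM over 8 genes) and the oligodendrocyte lineage (2770 to 10320 CPM over 8 genes), as a whole hippocampus would hold. Choroid plexus and ependymal markers ranged from 305 to 12587 CPM over 8 genes. None of these marker genes was at 0 in any group.

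Kcna1, the gene targeted by the guide, checked the labels. It ranged from 25.5 to 44.03 CPM in control_sgLacZ, from 16.9 to 56.7 in epileptic_sgLacZ (median 27.6) and from 13.9 to 133 in epileptic_sgKcna1 (median 19.1). Replicate 12 alone was high in that group, and the other 5 libraries lay at 13.9 to 29.5 CPM. Its log2 fold change between epileptic_sgKcna1 and epileptic_sgLacZ was 0.32 (SE 0.47, 95% interval -0.69 to 1.34, edgeR adjusted p = 0.706). The interval is too wide to exclude a modest rise. The study reported higher Kcna1 by quantitative PCR in treated hippocampi relative to the opposite side, but no clear rise by RNA-seq. Without replicate 12 its direction turned, to -0.65 (SE 0.27, edgeR unadjusted p = 0.0270, adjusted p = 0.293). The counts thus did not separate the guides, 5 of the 6 libraries labelled epileptic_sgKcna1 lay within or below the range of epileptic_sgLacZ, and every comparison with that group rests on the labels.

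By mean CPM over the 17 libraries, Meg3 ranked 220 of 17615 tested genes, Malat1 536, Snhg11 975 and Neat1 5525. The first 3 are thus among the more abundant RNAs of these libraries, and Neat1 is not. Per kilobase of exon, with both strand counts added, the level in control_sgLacZ was 101 CPM per kb for Malat1 (SD 64.9, n = 5), 26.1 for Meg3 (SD 18.5), 18.4 for Snhg11 (SD 12.3) and 1.42 for Neat1 (SD 0.545). The Malat1 value is an upper bound, since 50.1% to 55.4% of its reads in these controls lie in a part shared with an opposite gene, as described further on. Meg3 and Snhg11, the neighbours in this order, had overlapping ranges in control_sgLacZ (12.3 to 58.3 and 8.60 to 39.5 CPM per kb). The mean of Meg3 was also the higher in epileptic_sgLacZ (25.5 against 19.1) and in epileptic_sgKcna1 (35.2 against 25.9). Both were measured in the same libraries, so the overlap does not speak against this order, which was not tested within libraries. The 4 RNAs varied widely from library to library. Their coefficient of variation over all 17 libraries was 50.7% for Malat1, 47.5% for Meg3, 45.5% for Snhg11 and 35.1% for Neat1, against a median of 18.9% over the 11686 tested genes with at least 5 CPM. Of those genes, 3.87% varied more than Malat1 and 12.9% more than Neat1.

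**Figure D1:**
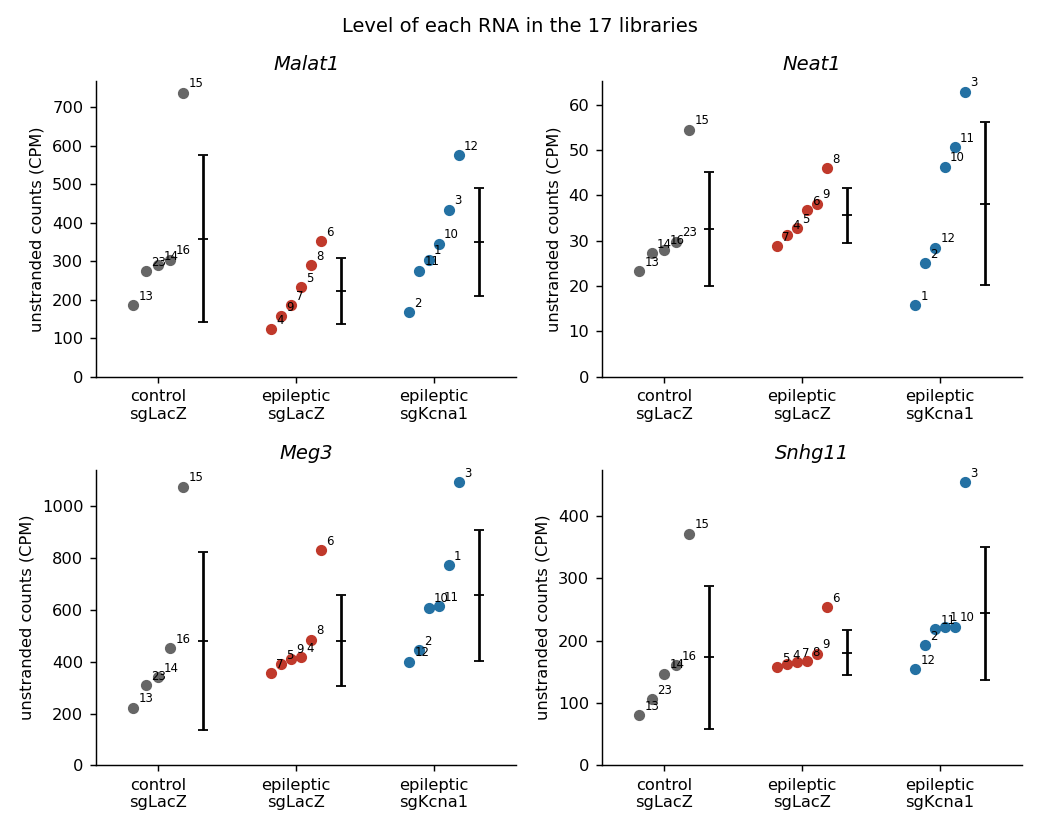
Level of each RNA in unstranded counts (CPM, linear axes from 0) by group, with each point a library labelled by its replicate number and the bar the mean ± SD (n = 5, 6 and 6). The groups overlap in all 4 panels, and control_sgLacZ replicate 15 is the highest control in each.

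Malat1 had 186, 289, 738, 304 and 273 CPM in control_sgLacZ replicates 13, 14, 15, 16 and 23. In epileptic_sgLacZ it had a lowest value of 124 CPM, a median of 209 and a highest of 351. In epileptic_sgKcna1 it had a lowest value of 168 CPM, a median of 325 and a highest of 576. Most epileptic_sgLacZ libraries lay below most of the others, but the 3 groups overlapped. The mean was 358 CPM ± 217 (SD, n = 5) in control_sgLacZ, 224 ± 85.6 (SD, n = 6) in epileptic_sgLacZ and 351 ± 141 (SD, n = 6) in epileptic_sgKcna1. The log2 fold change between epileptic_sgLacZ and control_sgLacZ was -0.68 (SE 0.34, 95% interval -1.41 to 0.05), with an edgeR adjusted p of 0.161. Without control_sgLacZ replicate 15, the highest control, it was -0.24 (edgeR adjusted p = 0.599). With sgKcna1 against sgLacZ in epileptic mice it was 0.65 (SE 0.33, 95% interval -0.05 to 1.35), with an edgeR adjusted p of 0.277. Neither difference passed the threshold. In bulk tissue, fewer cells of a type and less RNA per cell cannot be told apart, for Malat1 as for the genes that follow.

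Neat1 had 23.3, 27.3, 54.5, 27.99 and 29.8 CPM in control_sgLacZ, in the same order of replicates. It ranged from 28.8 to 46.0 CPM in epileptic_sgLacZ, with a median of 34.8, and from 15.8 to 62.9 in epileptic_sgKcna1, with a median of 37.4. The treated epileptic group spanned both other groups. The log2 fold change was 0.13 (SE 0.28, 95% interval -0.48 to 0.74) for epileptic_sgLacZ against control_sgLacZ and 0.10 (SE 0.27, 95% interval -0.48 to 0.68) for epileptic_sgKcna1 against epileptic_sgLacZ, with edgeR adjusted p of 0.778 and 0.846. The first was 0.39 without control_sgLacZ replicate 15 (edgeR adjusted p = 0.324).

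Meg3 had 222, 340, 1074, 451 and 309 CPM in control_sgLacZ. It ranged from 355 to 829 CPM in epileptic_sgLacZ, with a median of 414, and from 400 to 1091 in epileptic_sgKcna1, with a median of 611. The single high control, replicate 15, brought the control mean (479 CPM ± 342, SD, n = 5) to that of epileptic_sgLacZ (481 ± 176, SD, n = 6). The log2 fold change between these groups was 0.01 (SE 0.35, 95% interval -0.74 to 0.75, edgeR adjusted p = 0.992), and without that control it was 0.54 (edgeR adjusted p = 0.185). Between epileptic_sgKcna1 and epileptic_sgLacZ it was 0.45 (SE 0.33, 95% interval -0.26 to 1.15, edgeR adjusted p = 0.429).

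Snhg11 had 81.0, 147, 372, 161 and 106 CPM in control_sgLacZ. It ranged from 158 to 254 CPM in epileptic_sgLacZ, with a median of 166, and from 154 to 455 in epileptic_sgKcna1, with a median of 220. Replicate 15 was again far above the other controls. The log2 fold change between epileptic_sgLacZ and control_sgLacZ was 0.06 (SE 0.32, 95% interval -0.62 to 0.74, edgeR adjusted p = 0.909), and 0.55 without that control (edgeR adjusted p = 0.145). Between epileptic_sgKcna1 and epileptic_sgLacZ it was 0.43 (SE 0.30, 95% interval -0.22 to 1.08, edgeR adjusted p = 0.400).

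In edgeR's quasi-likelihood test 0 of the 4 RNAs passed the adjusted threshold of 0.05 between epileptic_sgLacZ and control_sgLacZ, where 11% of all 17615 tested genes did. Likewise 0 of 4 passed between epileptic_sgKcna1 and epileptic_sgLacZ, with 0% of all genes, and 0 of 4 between epileptic_sgKcna1 and control_sgLacZ, with 0% of all genes. At an unadjusted p under 0.05, 0 of the 4 passed in each comparison, against 34.7%, 19.2% and 6.77% of all genes. The libraries of the groups overlapped for each of the 4, and 4.39%, 0.483% and 1.14% of all genes had no overlap. DESeq2 and limma voom also called 0 of the 4 in all 3 comparisons. For epileptic_sgKcna1 against control_sgLacZ the log2 fold changes were -0.03 for Malat1 (SE 0.34), 0.23 for Neat1 (SE 0.28), 0.45 for Meg3 (SE 0.35) and 0.49 for Snhg11 (SE 0.32), with edgeR adjusted p from 0.771 to 0.987. Without epileptic_sgKcna1 replicate 12 the values for epileptic_sgKcna1 against epileptic_sgLacZ were 0.45 for Malat1, 0.17 for Neat1, 0.55 for Meg3 and 0.53 for Snhg11, with 0 of 4 called. These comparisons share libraries with one another and are not independent. The intervals leave room for changes of about 1 log2 unit in Meg3 and Snhg11, so the data do not show that the groups were alike.

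**Figure D2:**
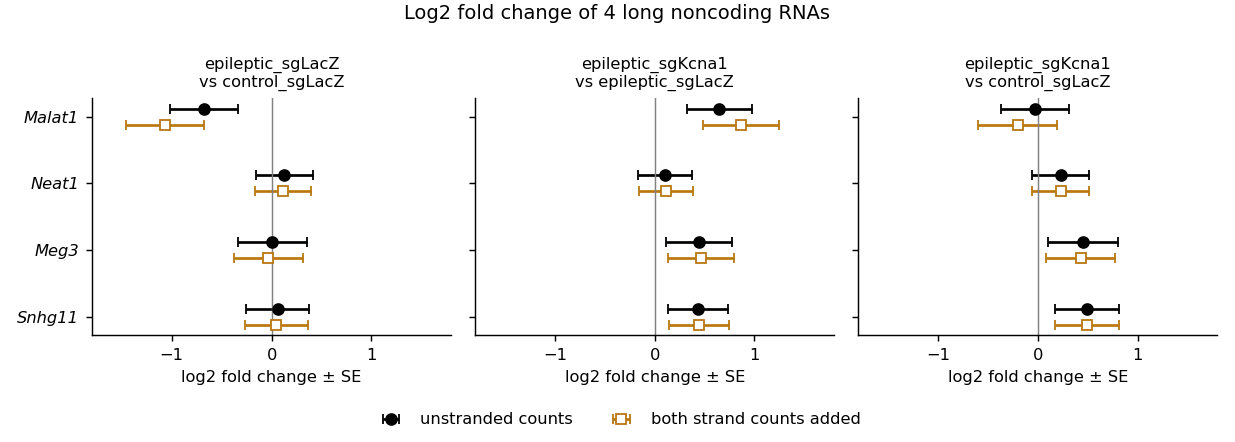
Log2 fold change ± SE of the 4 RNAs in the 3 comparisons, from unstranded counts (black circles) and from both strand counts added (open squares). Malat1 moves from -0.68 to -1.07 between epileptic_sgLacZ and control_sgLacZ when both strands are added, and the other 3 RNAs hardly move.

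Strand mattered for Malat1. Reads of the forward and the reverse strand were equally frequent in every library (ratio 0.994 to 0.998), so reads carried no strand information and a read inside a pair of opposite genes was counted for neither. A gene on the strand opposite Malat1 (ENSMUSG00000102349, without a symbol in the name table) had 0 unstranded reads in all 17 libraries and 97733 when its strand counts were added. Malat1 lost 97734 of 202854 reads in the unstranded counts, and the losses of both genes differed by at most 2 reads in any library. These reads cannot be divided between Malat1 and its opposite gene. Meg3 lost 4.78% to 9.48% of its reads to another opposite gene, while Neat1 and Snhg11 lost under 1% in every library.

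With both strand counts added, Malat1 had 359, 572, 1499, 609 and 497 CPM in control_sgLacZ replicates 13, 14, 15, 16 and 23. In epileptic_sgLacZ it ranged from 158 to 540 CPM, with a median of 332. In epileptic_sgKcna1 it ranged from 260 to 1111 CPM, with a median of 526. Epileptic_sgLacZ was again the lowest group, and the groups still overlapped. The log2 fold change between epileptic_sgLacZ and control_sgLacZ was -1.07 (SE 0.39, edgeR unadjusted p = 0.0141, adjusted p = 0.0675), short of the threshold that 14.2% of the 19308 genes tested in this way passed (36.3% at an unadjusted p under 0.05). With sgKcna1 against sgLacZ in epileptic mice it was 0.87 (SE 0.38, edgeR unadjusted p = 0.0342, adjusted p = 0.231), where 0% of all genes passed (20% unadjusted). In epileptic_sgKcna1 against control_sgLacZ it was -0.20 (SE 0.39, edgeR adjusted p = 0.907), with 0% of all genes passing (7.01% unadjusted). Whether the first of these values passed the threshold depended on single libraries. It passed without epileptic_sgKcna1 replicate 12 (-1.07, edgeR adjusted p = 0.0372), a library in neither group compared, with the fold change itself unmoved. It also passed without epileptic_sgLacZ replicate 5 (-1.13, edgeR adjusted p = 0.0453), and was -0.59 without control_sgLacZ replicate 15 (edgeR adjusted p = 0.242). Over all alternatives its adjusted p in unstranded or summed counts ran from 0.0372 to 0.599.

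The loss itself differed between groups. The shared part held 50.1% to 55.4% of Malat1 reads in control_sgLacZ, 30.7% to 49.02% in epileptic_sgLacZ and 41.2% to 53.2% in epileptic_sgKcna1. Control and epileptic_sgLacZ libraries did not overlap, with means of 53.5% ± 2.08 (SD, n = 5) and 38.5% ± 6.65 (SD, n = 6), a difference of -15.0 percentage points (two-sided exact permutation p = 0.00433, 0.0377 adjusted over 2292 genes with a shared part). The shift was not particular to Malat1. Of the 2292 genes, 62.5% passed the same adjusted test, 10.3% had no overlap between these groups, and 567 differed by at least as much. The mean in epileptic_sgKcna1 was 46.2% ± 5.67 (SD, n = 6), 7.68 points above epileptic_sgLacZ (exact permutation p = 0.0649, adjusted 0.234) and lower than in control_sgLacZ, with a difference of -7.33 points (exact permutation p = 0.0325, adjusted 0.431). In those comparisons 0% of the 2292 genes passed and the Malat1 libraries overlapped, as did those of all but 0.218% and 1.4% of the genes. Across the 17 libraries the shared percent went with the percent of reads mapped to several places (Pearson's r 0.84, 0.63 within groups) and with the percent unmapped (r 0.68, 0.69 within groups), given as descriptions over libraries that share their read set. The part of these library measures in the Malat1 difference was not tested.

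**Figure D3:**
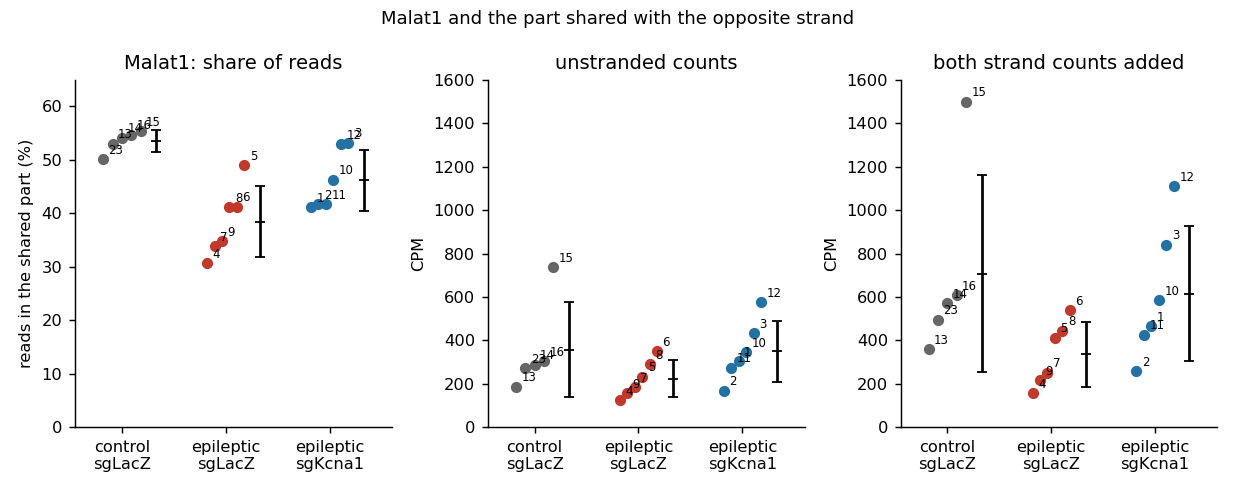
Malat1 in each library by group, as the percent of reads in the part shared with the opposite strand (left), CPM from unstranded counts (middle) and CPM from both strand counts added (right), with replicate numbers and mean ± SD. Control and epileptic_sgLacZ libraries do not overlap in the left panel and do in the others.

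In CPM, the shared part of Malat1 averaged 383 (SD 257, n = 5) in control_sgLacZ, 136 (SD 74.9, n = 6) in epileptic_sgLacZ and 297 (SD 184, n = 6) in epileptic_sgKcna1. The rest of the gene averaged 324 (SD 197), 201 (SD 77.9) and 317 (SD 128). By mean and by median both parts were lowest in epileptic_sgLacZ, and the shared part by more. The groups overlapped in both parts. The shared part ran from 191 to 831 CPM in control_sgLacZ and from 48.6 to 223 in epileptic_sgLacZ, and the rest from 169 to 668 and from 110 to 317. Neither part was tested, and reads of the shared part may belong to the opposite gene.

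The levels of Meg3 and Snhg11 went together from library to library. Pearson's r of their log2 CPM over the 17 libraries was 0.96 and Spearman's rho 0.93, each with a permutation p of 1e-05, the smallest that 100000 permutations can give (6e-05 adjusted over 6 pairs). With group means removed r was 0.95, and without the 2 libraries farthest from the median, epileptic_sgKcna1 replicate 3 and control_sgLacZ replicate 15, it was 0.93. The 2 genes lie on different chromosomes, and within all 3 groups the same libraries were highest for both (control_sgLacZ 15, epileptic_sgLacZ 6 and epileptic_sgKcna1 3).

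**Figure D4:**
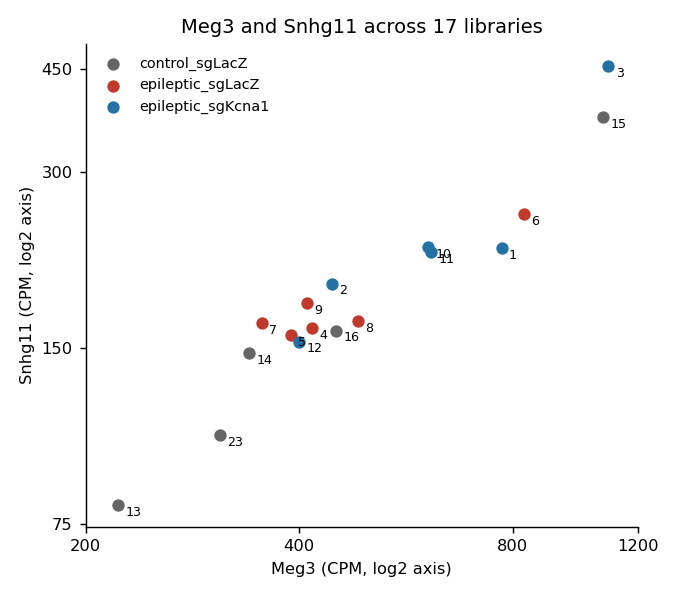
Meg3 against Snhg11 (CPM, log2 axes), with each point a library coloured by group and labelled with its replicate number. Libraries of all 3 groups lie along a single diagonal band (Pearson's r 0.96, n = 17).

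The other pairs were looser. How often pairs of other genes reach such values was not counted, so these are not to be read as particular to the set. Malat1 and Meg3 had r 0.60 (rho 0.59, permutation p = 0.0114 and 0.0142, adjusted 0.0227 and 0.0284), which was 0.50 without the 2 farthest libraries. Neat1 and Snhg11 had r 0.60 (rho 0.60, permutation p = 0.0106 and 0.0121, adjusted 0.0227 and 0.0284), which became 0.73. Neat1 and Meg3 had r 0.53 (rho 0.56, permutation p = 0.0313 and 0.0211, adjusted 0.0383 and 0.0317), which became 0.78. Malat1 and Snhg11 had r 0.52 (permutation p = 0.0319, adjusted 0.0383) but a rho of 0.43 that missed the threshold (permutation p = 0.0891, adjusted 0.107), and r was 0.40 without the 2 farthest libraries. For the nuclear pair, Malat1 and Neat1, r was 0.38 (permutation p = 0.128, adjusted 0.128) and rho 0.33 (permutation p = 0.195, adjusted 0.195), and r was 0.26 without the 2 farthest libraries.

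Among the 11685 other genes with a mean of at least 5 CPM, those whose log2 CPM followed each RNA most closely over the 17 libraries were named. Malat1 was followed by a gene without a symbol (ENSMUSG00000109536, r 0.98), by Pabpn1 (r 0.90), which encodes the nuclear poly(A) binding protein, and by Sfrs18 (r 0.88). Neat1 was followed by Robo3 (r 0.85), an axon guidance receptor, Metap1d (r 0.81), a mitochondrial methionine aminopeptidase, and Suv420h2 (r 0.79), a histone H4 methyltransferase. Meg3 was followed, after Snhg11, by a gene without a symbol (ENSMUSG00000097767, r 0.89) and Ankrd16 (r 0.88). Snhg11 was followed, after Meg3, by another without a symbol (r 0.94) and by the same ENSMUSG00000097767 (r 0.93). Genes without a symbol in the table may include Rian, Mirg or Miat under another identifier, so they are not to be read as unrelated to the set. Each of these genes had an edgeR adjusted p above the threshold in all 3 comparisons.

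Of the imprinted Dlk1-Dio3 domain, 54 of 103 genes in the gene table had a row and 4 passed the filter on low counts, with 0 called in any comparison. The protein-coding, paternally expressed genes had log2 fold changes between epileptic_sgLacZ and control_sgLacZ of 0.70 for Dlk1 (SE 0.53), -0.03 for Rtl1 (SE 0.47) and -0.11 for Dio3 (SE 0.54). Between epileptic_sgKcna1 and epileptic_sgLacZ they were -0.65, 0.55 and 0.30, beside 0.45 for Meg3. The 47 microRNA genes of the domain were out of reach of these libraries, with 28 at 0 reads in all 17 and at most 8 reads in any library.

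Lists of related genes are described by counts, to be read against 7.26% of all genes that rose and 3.76% that fell between epileptic_sgLacZ and control_sgLacZ. Of 14 known or proposed regulators of the domain, 2 rose in epileptic_sgLacZ against control_sgLacZ and 0 fell, with a median log2 fold change of 0.12 against 0.02 over all genes. Mef2d, an activity-dependent transcription factor, rose by 1.16 (SE 0.27, edgeR adjusted p = 0.0327). An opposite gene shared 39.1% of its reads, which makes its value uncertain. Dnmt1, the maintenance DNA methyltransferase, rose by 0.47 (SE 0.13, edgeR adjusted p = 0.0404). The other 12 did not pass.

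The snoRNA host genes, relatives of Snhg11, held 8 tested members of 20 named. Of these 1 fell and 0 rose between epileptic_sgLacZ and control_sgLacZ, and the median log2 fold change was -0.68. Gas5, a growth-arrest transcript, fell by 0.65 (SE 0.20, edgeR adjusted p = 0.0488). At an unadjusted p under 0.05, 5 of the 8 were lower and 0 higher, beside 15.9% of all genes that were lower at that threshold. Snhg11 itself, at 0.06, was not among them. For epileptic_sgKcna1 against epileptic_sgLacZ the median was 0.45, with 0 called.

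Of 16 paraspeckle proteins, the partners of Neat1, 1 fell and 0 rose, with a median of -0.09. Matr3, an RNA-binding protein of the nuclear matrix, fell by 0.59 (SE 0.13, edgeR adjusted p = 0.0320). Sfpq and Nono, the core paraspeckle pair, had -0.18 (SE 0.12) and 0.26 (SE 0.11), neither past the threshold. Of 19 nuclear speckle proteins and Miat binding partners, 1 rose and 3 fell, with a median of -0.21. Celf4, a splicing regulator of excitatory neurons, fell by 0.78 (SE 0.24, edgeR adjusted p = 0.0483), and Srsf11, a speckle splicing factor, by 0.66 (SE 0.18, adjusted p = 0.0377). The other Celf genes of the list went the other way, none past the threshold. Celf3 had 0.83 (SE 0.28, edgeR adjusted p = 0.0565), Celf6 0.37 and Celf5 0.02. Sf1, the branch point binding protein, rose by 0.38 (SE 0.11, edgeR adjusted p = 0.0435).

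Of 8 other long noncoding RNAs of the brain that passed the filter, 2 fell and 0 rose in epileptic_sgLacZ, with a median of -0.40. Mir99ahg, the host of a microRNA cluster, fell by 1.08 (SE 0.34, edgeR adjusted p = 0.0477), and Mir22hg, the host of miR-22, by 0.89 (SE 0.24, edgeR adjusted p = 0.0355). Between epileptic_sgKcna1 and epileptic_sgLacZ their log2 fold changes were 0.97 and 0.74, with an adjusted p of 0.213 for both. In that comparison and in epileptic_sgKcna1 against control_sgLacZ, 0 genes of any of these lists were called, as was 0% of all genes.

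**Figure D5:**
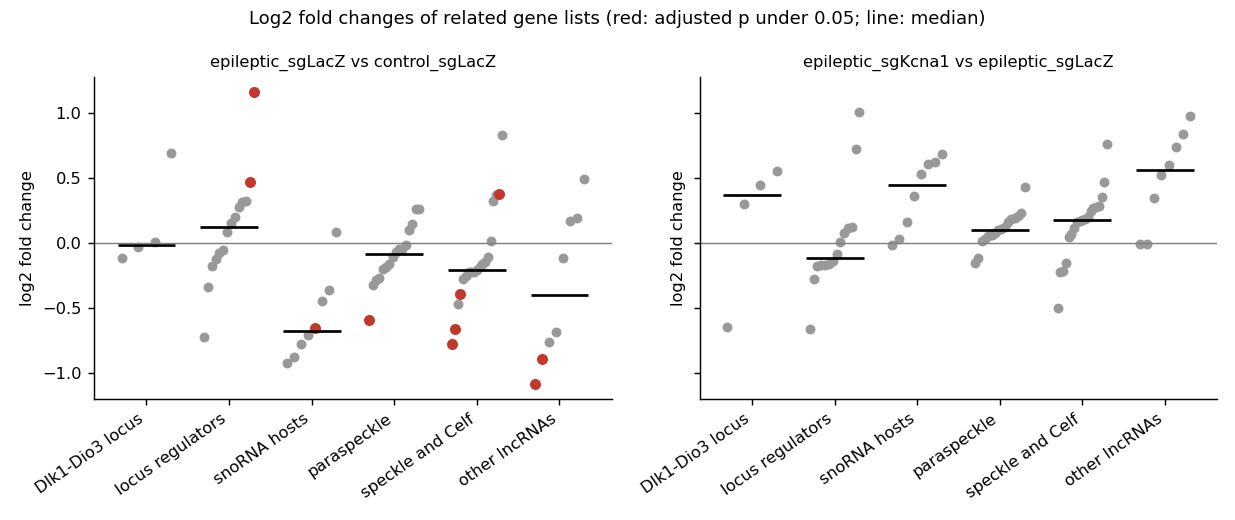
Log2 fold changes of each tested gene (points) in 6 lists, for epileptic_sgLacZ against control_sgLacZ (left) and epileptic_sgKcna1 against epileptic_sgLacZ (right), with the list's median as a line and genes past the adjusted threshold in red. The snoRNA hosts have a median of -0.68 on the left and 0.45 on the right.

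Markers of cell types are to be read against the 11% of all tested genes called between epileptic_sgLacZ and control_sgLacZ. Slc17a7, the vesicular glutamate transporter of excitatory neurons, rose by 0.77 (SE 0.21, edgeR adjusted p = 0.0366), 1 of 10 neuronal markers called. The median of that list was -0.05, with Snap25 at -0.26 and Rbfox3 at -0.31, neither past the threshold. Gfap and Aldh1l1 rose by 0.60 (SE 0.18) and 0.33 (SE 0.09), 2 of 8 astrocyte markers, and their list summed to 2834 to 3229 CPM in control_sgLacZ against 3117 to 3855 in epileptic_sgLacZ. The median of the astrocyte list was 0.18. Sox9, on the same list, went the other way at -0.82 (SE 0.31, edgeR adjusted p = 0.0756). Csf1r rose by 0.38 (SE 0.10), 1 of 8 microglial markers, and Tmem212 fell by 1.23 (SE 0.37), 1 of 8 of choroid plexus and ependyma. The other 7 of that list had values above 0, from 0.21 for Ttr to 1.12 for Clic6, none past the threshold, and the list's median was 0.35. No oligodendrocyte or endothelial marker passed, and the 7 endothelial values ran from -0.54 for Cldn5 to 0.54 for Slco1c1. Of 13 mitochondrial genome protein genes, 1 fell, mt-Nd6, by 0.82 (SE 0.26, edgeR adjusted p = 0.0477). The list was mixed, with a median of -0.28 and with 6 genes lower and 2 higher at an edgeR unadjusted p under 0.05. Among the higher was mt-Nd5, at 0.62 (SE 0.21, edgeR adjusted p = 0.0554). Opposite genes shared 29.5% of the reads of mt-Nd6, 26.8% of Csf1r and 21.6% of Aldh1l1, which makes these values uncertain. The part of these marker differences in the list results was not tested. All 16 listed genes called in this comparison had an adjusted p between 0.0320 and 0.0488, and leaving out 1 library left 0 genes called over the whole table in 7 of 17 fits.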

How the data were processed

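RNA-seq libraries of 17 mouse hippocampi were grouped by their labels. The authors aligned reads to mm10 with STAR 2.7 and deposited raw counts per gene (unstranded, forward and reverse strand). The kit in the labels does not keep strand and the one in the study's methods does. The annotation release is not given in the sources used here.

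Unstranded counts were fitted with edgeR 4.0.16 in R 4.3.3 (filterByExpr by group, TMM scaling, quasi-likelihood F test, 3 groups, no covariate, Benjamini-Hochberg adjustment over 17615 genes, threshold 0.05), after a check on simulated data. The study's DESeq2 (1.42.0 here) and limma 3.58.1 served as alternatives. CPM are TMM-scaled. Forward and reverse counts were added to recover reads in parts shared by opposite genes, and the percent shared was compared by exact permutation in genes with 5% to 95% of reads shared over all libraries and at least 50 reads in every library. Correlations used log2 CPM with a prior count of 2. Symbols and GRCm38.p6 positions came from gene tables and exon lengths from an mm9 annotation.

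The members and lists were chosen with earlier results of these data known. In each list, at most 2 called genes with the largest rise and 2 with the largest fall were named, or those with the smallest p. Same-group libraries differed by more than sampling noise (chi-square per degree of freedom 8.67 to 220 over 40 pairs). The labels do not say whether replicates are separate animals, so p-values measure the spread between these samples. The count floor covers counting error only.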

Additional observations from a re-analysis of the deposited data

Results flagged for a closer look

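A library far above the rest of its group was looked for in 24 groups of values (Dixon's test, which flags about 1 in 20 by chance). Control_sgLacZ replicate 15 was far above the other controls for all 4 RNAs, at 738 CPM for Malat1 (1499 with both strands added), 54.5 for Neat1, 1074 for Meg3 (1054 with both strands added) and 372 for Snhg11. Epileptic_sgLacZ replicate 6 was far above its group at 829 CPM for Meg3 (790 with both strands added) and 254 for Snhg11. Epileptic_sgKcna1 replicate 3 was far above its group at 455 CPM for Snhg11. Replicate 15 had 19.5% of reads unmapped, the lowest of the controls, and its part in the high levels was not tested.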

How the results depend on the processing

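In all 27 alternatives from 10 other settings and 17 fits that left out a library, 0 of the 4 RNAs were called in each comparison. The number of genes called between epileptic_sgLacZ and control_sgLacZ (1940) became 3686 with DESeq2, 7301 with limma voom, 428 with the percent unmapped, 0 with the percent outside genes and 516 with sex as a covariate, and 3045 with only the 2 groups. Leaving out a library gave 0 to 5526. Between epileptic_sgKcna1 and epileptic_sgLacZ (0) it became 143 with DESeq2, 12 with limma voom and 1 without a filter (0 to 1508 leaving out a library), and between epileptic_sgKcna1 and control_sgLacZ (0) it became 39 with DESeq2, 71 with limma voom and 266 with the percent unmapped (0 to 14). The cause was not tested. Sex for the covariate was inferred in each library from reads of Xist against Y-linked genes, though 5 of the 17 libraries held at least 50 reads of both. Xist prevailed in 4 of 6 epileptic_sgLacZ, 2 of 5 control_sgLacZ and 2 of 6 epileptic_sgKcna1 libraries, so sex was not balanced between groups.

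With both strands added, Malat1 was called between epileptic_sgLacZ and control_sgLacZ only without epileptic_sgKcna1 replicate 12 or epileptic_sgLacZ replicate 5. Signs turned for 4 log2 fold changes, none of which had passed the threshold. Meg3 between epileptic_sgLacZ and control_sgLacZ (0.01) was -0.0049 with DESeq2's size factors, -0.0047 with DESeq2, -0.0020 with only the 2 groups, -0.032 with both strands added, -0.14 with the percent unmapped as covariate and -0.16 with both strands added and that covariate, and -0.22 to 0.54 leaving out a library (-0.25 to 0.50 with both strands added). Snhg11 (0.06) was -0.092 with the percent unmapped, -0.10 with both strands added as well, and -0.12 to 0.55 leaving out a library (-0.14 to 0.53). Neat1 between epileptic_sgKcna1 and epileptic_sgLacZ was -0.10 to 0.26 leaving out a library (-0.09 to 0.27). Malat1 between epileptic_sgKcna1 and control_sgLacZ was 0.10 with the percent outside genes and -0.24 to 0.41 leaving out a library (-0.46 to 0.27).

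The fits with both strands added and a library left out, or with a covariate, and those of Kcna1 with a library left out were chosen after seeing the data. No paired analysis was possible because the groups share no replicate numbers.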
